A study of Mus musculus with 24 samples.

Results

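Expression of 9 genes of nucleotide synthesis was examined in mouse neuroblastoma tumors and adrenal glands by sequencing of polyadenylated RNA. The genes were Rrm1, Rrm2, Tyms, Dut, Dtymk, Tk1, Impdh2, Paics and Cad, and they were found by symbol among the 21833 protein-coding genes of the deposited expression table. Values were FPKM, fragments scaled to gene length in kilobases and to library size. A further 51 genes of nucleotide metabolism served as their pathway background.

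The study asked what the RNA-binding protein IGF2BP1 does in the sympatho-adrenal lineage, with and without the transcription factor MYCN, which is amplified in many high-risk neuroblastomas. The libraries formed 4 groups. AG denotes control adrenal glands from mice without Cre (CRE -, 3 libraries). AGM were MYCN +/-, CRE + adrenal glands without a tumor (5 libraries). TI were tumors of IGF2BP1 transgenic, CRE + mice (8 libraries), of which the labels gave 7 as IGF2BP1 +/+ and 1 as IGF2BP1 +/-. TIM were tumors labelled IMP1/MYCN, CRE +, where IMP1 is an older name of IGF2BP1 (8 libraries). The transgenes sat behind a stop cassette at the Rosa26 locus and were released by a Cre recombinase driven by Dbh, so they were meant to act in cells of the noradrenergic lineage only. In TIM the transgenes shared the Rosa26 locus, whereas most TI tumors carried IGF2BP1 on both alleles, so IGF2BP1 dose and MYCN cannot be told apart between the tumor groups. In AGM glands these cells were a part of the organ, and cortex, fat and vessels came with them. Per the study, most TI tumors lay in the lower abdomen and few in the adrenal gland. TIM mice had tumors of the adrenal glands, in the abdomen or along the spine. Tissue of origin was therefore not matched between tumors and glands or between TI and TIM, and no column could be tied to a tumor site. AGM glands were taken from mice of about a year and tumors when a mouse reached its endpoint, so age was not matched, and the ages of AG mice were not given in the sources used here. Which TI column was the heterozygous tumor was not given either. Libraries are therefore named by group and column order only, and since no label says that they came from separate animals, p-values measure the spread between these libraries.

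A dividing cell has to build DNA precursors faster than a resting one. Ribonucleotide reductase, made of the large subunit Rrm1 and the small subunit Rrm2, turns ribonucleotides into deoxyribonucleotides, and Rrm2 protein is present mainly in S phase. Thymidine triphosphate needs further steps: Dut hydrolyzes dUTP to dUMP, Tyms methylates dUMP to dTMP, Dtymk phosphorylates dTMP, and Tk1 salvages thymidine into the same pool. Upstream, Paics and Impdh2 act in purine synthesis, Impdh2 at the rate-limiting step toward guanine nucleotides, and Cad catalyzes the opening reactions of pyrimidine synthesis. MYC family proteins bind the E-box CACGTG, and E2F factors drive many S-phase genes, so the start regions of the members are shown before their values.

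The RefSeq promoter table (build GRCm38.p6, 250 bases before to 50 bases after the start) held a window for 9 of 9 members, and each window matched GRCm39, the build of the deposited alignment, exactly once. The windows below are given 5′ to 3′ on the strand of the gene with GRCm39 coordinates. Rrm1 and Rrm2 are shown as the subunits whose balance differed between tumors and glands, and Impdh2 and Paics as the purine genes that hold an E-box. Capitals mark every match, on either strand, to the E-box CACGTG, the E2F site TTTGGCGC or TTTCGCGC, the E2F core GGCGGGAA, the CCAAT box (its name gives its letters) and the cell cycle homology region (CHR) TTTGAA. No matches overlapped.
Rrm1 (chr7:102090652-102090951, plus strand): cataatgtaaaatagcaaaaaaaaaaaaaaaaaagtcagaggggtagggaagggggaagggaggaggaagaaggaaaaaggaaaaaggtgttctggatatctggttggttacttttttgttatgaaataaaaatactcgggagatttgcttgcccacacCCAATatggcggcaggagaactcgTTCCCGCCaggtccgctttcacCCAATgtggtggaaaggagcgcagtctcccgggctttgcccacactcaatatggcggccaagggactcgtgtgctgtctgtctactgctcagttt
Rrm2 (chr12:24758003-24758302, plus strand): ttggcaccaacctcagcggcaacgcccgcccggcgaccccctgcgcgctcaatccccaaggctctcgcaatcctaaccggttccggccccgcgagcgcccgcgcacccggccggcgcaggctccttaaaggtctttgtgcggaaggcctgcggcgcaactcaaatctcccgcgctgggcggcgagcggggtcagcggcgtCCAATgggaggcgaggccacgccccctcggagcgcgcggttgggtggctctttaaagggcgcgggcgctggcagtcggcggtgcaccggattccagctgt
Impdh2 (chr9:108437385-108437684, plus strand): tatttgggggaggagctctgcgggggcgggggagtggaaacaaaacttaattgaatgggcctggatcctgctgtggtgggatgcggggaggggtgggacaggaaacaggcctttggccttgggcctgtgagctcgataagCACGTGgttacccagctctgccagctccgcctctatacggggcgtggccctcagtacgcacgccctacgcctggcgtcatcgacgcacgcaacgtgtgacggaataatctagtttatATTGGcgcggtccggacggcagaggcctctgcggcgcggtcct
Paics (chr5:77098899-77099198, plus strand): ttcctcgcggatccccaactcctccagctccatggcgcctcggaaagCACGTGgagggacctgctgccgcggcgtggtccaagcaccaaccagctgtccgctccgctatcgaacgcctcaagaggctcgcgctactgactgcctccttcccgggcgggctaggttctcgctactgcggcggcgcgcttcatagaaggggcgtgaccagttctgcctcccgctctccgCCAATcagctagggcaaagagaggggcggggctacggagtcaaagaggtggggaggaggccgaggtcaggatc

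The E-box was present in 4 of 9 windows, those of Tyms, Dtymk, Impdh2 and Paics, and in 7.15% of the 32851 promoters of the table. It lay 110 bases before the start of Impdh2 and 203 bases before that of Paics. CCAAT was present in 5 member windows (Rrm1, Rrm2, Dtymk, Impdh2 and Paics) and in 37.4% of all promoters. Rrm1 alone held the E2F core, 67 bases before its start on the opposite strand, against 2.19% of all promoters. No member window held the longer E2F letters (0.813% of all promoters) or the CHR (17.9%). The windows of Rrm2 and Dut lay inside the gene spans given below, so bases before those spans were not searched for either gene. These matches describe letters and do not show binding.

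In GRCm39 the members lay on 7 chromosomes. Tyms (chr5:30263198-30278633, minus strand), Cad (chr5:31212111-31236418, plus strand) and Paics (chr5:77099139-77116370, plus strand) were on chromosome 5. Rrm1 was at chr7:102090890-102119709 (plus), Rrm2 at chr12:24757811-24764145 (plus), Tk1 at chr11:117702770-117717042 (minus) and Dut at chr2:125089110-125100966 (plus). Dtymk was at chr1:93718799-93729710 (minus) and Impdh2 at chr9:108437485-108442783 (plus).

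Recovered reads summed to 1170004708 in the largest library (AGM library 3), of which 98.6% lay in 126 genes above 1000 FPKM. This share differed by group, at 86.1% to 98.6% over AGM libraries and 64.5% to 97.3% over TIM libraries. It was 0.702% to 0.792% over AG libraries and 0.217% to 2.21% over TI libraries. Outside these genes the libraries held 12334076 to 23683176 reads. The total of AGM library 3 exceeded the library size implied by its FPKM scale (8.03e+07), so totals and shares do not measure sequencing depth. The marker sums that follow use deposited values, and Cyp21a1 and Hsd3b1 in AGM and Th in TIM reached above 1000 FPKM. Marker sums were checked against the labelled tissues. The 6 adrenal cortex markers were detected in every gland and summed to 642.1 to 662.4 FPKM in AG and 3580 to 4794 in AGM. In tumors the same sum was 0.0173 to 9.964 in TI and 0.2808 to 9.28 in TIM, and the cortical enzyme gene Hsd3b1 was listed at 0 in 6 TI and 3 TIM libraries. The 6 sympatho-adrenal markers summed to 160.4 to 572.4 FPKM over TI libraries and 137.3 to 2597 over TIM libraries, against 31.21 to 45.97 for AG and 248.4 to 410 for AGM. TIM library 5 stood apart: it had the highest sympatho-adrenal sum and the lowest proliferation sum of the tumors (0.5463 FPKM over 9 markers such as Mki67 and Top2a), next to the highest Schwann (20.01) and adipocyte (11.78) sums of the tumors. The proliferation sum reached 7.576 to 61.87 FPKM over TI libraries and 0.5463 to 39.41 over TIM libraries, against 1.683 to 2.535 for AG and 0.4329 to 0.9881 for AGM. It moved with most results below, and its part in them was not tested. Fewer cells of a type and less RNA per cell cannot be told apart in such bulk samples. The labels put AG wholly in sequencing run 1 and AGM wholly in run 2, TI mostly in run 1 (6 of 8) and TIM in runs 2 (3) and 3 (5). Run and group therefore cannot be told apart in AGM against AG and in TIM against AG. Runs also differed for most tumor libraries in TIM against TI, in both tumor groups against AGM and so in the difference of differences. No column could be tied to a run, so run could not be separated from group there either.

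**Figure D1:**
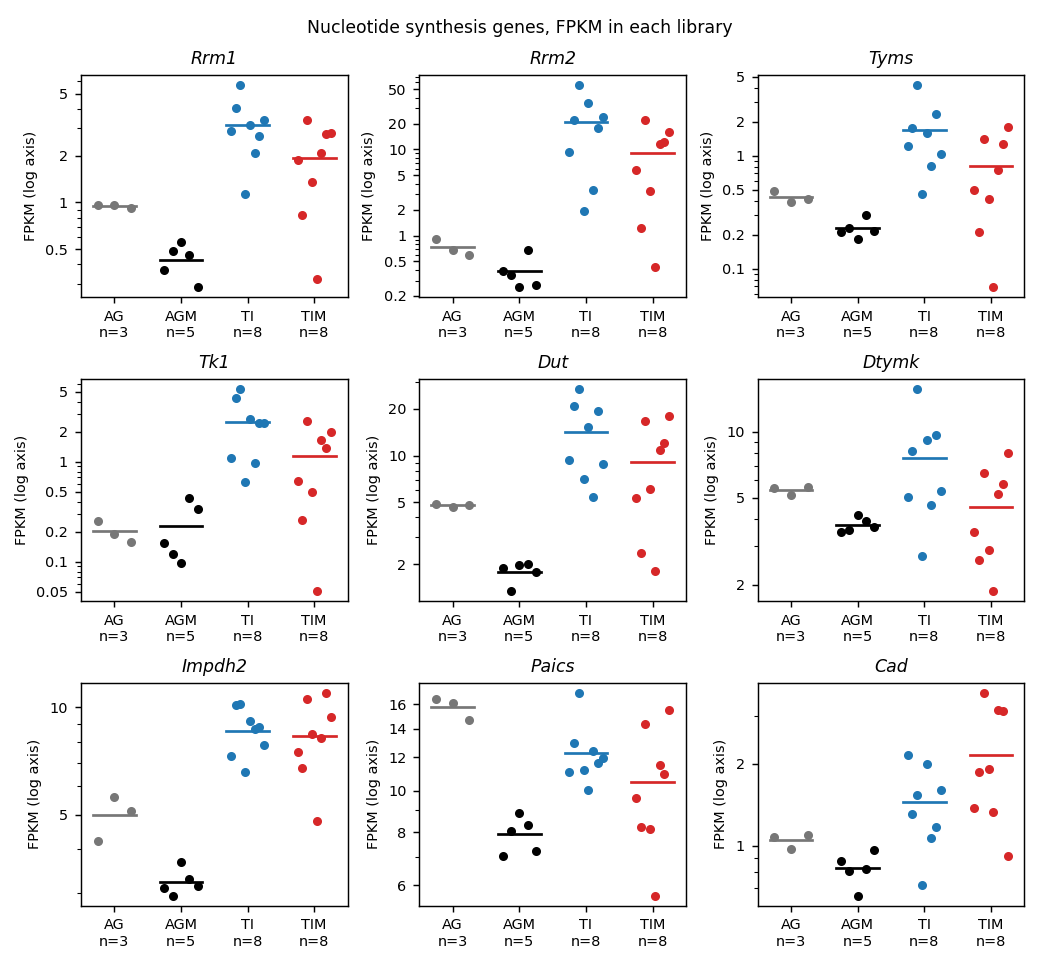
FPKM of the 9 members (log axes), 1 point per library and a line at the group mean, for AG (n = 3), AGM (n = 5), TI (n = 8) and TIM (n = 8). Rrm2 ran from 0.592 to 0.918 in AG and from 1.943 to 56.53 in TI, while Impdh2 stayed within 1.55-fold over the TI libraries and Paics was highest in AG, where its mean was 15.74.

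The question of the first comparison was which members differed between IGF2BP1 tumors and control glands. In TI, 6 of 9 members rose against AG. The largest were Rrm2 (29.0-fold between means), Tk1 (12.4-fold) and Tyms (3.91-fold), followed by Rrm1 (3.295-fold), Dut (2.97-fold) and Impdh2 (1.73-fold). Dtymk, Cad and Paics did not pass the test. The test was limma on log2(FPKM + 1) with Benjamini-Hochberg adjustment over 10171 genes at FDR 0.05, and it called 52.4% of all genes tested, 24.6% as higher. The median log2 difference was 0.80 over the members and -0.0021 over all genes tested. Rrm1, Rrm2, Tyms and Tk1 were under 1 FPKM in all 8 gland libraries and passed the filter on low values (1 FPKM in 3 libraries) through tumor libraries. Cad reached 1 FPKM in 2 gland libraries only and passed through tumors as well. Counts of members higher in a tumor group than in AG or AGM, and medians over the members there, are therefore descriptions, here and below. So are the ranks and adjusted p-values of Rrm1, Rrm2, Tyms, Tk1 and Cad in these comparisons.

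In TIM, 3 members rose against AG, Rrm2 (12.5-fold between means), Cad (2.06-fold) and Impdh2 (1.67-fold), and Paics fell to 0.667 of its AG mean. This comparison called 51.0% of all genes, 22.5% as higher and 28.5% as lower. The median log2 difference of the members was 0.52. It shares the AG libraries with the comparison of TI, so calls shared by both are not independent.

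**Figure D2:**
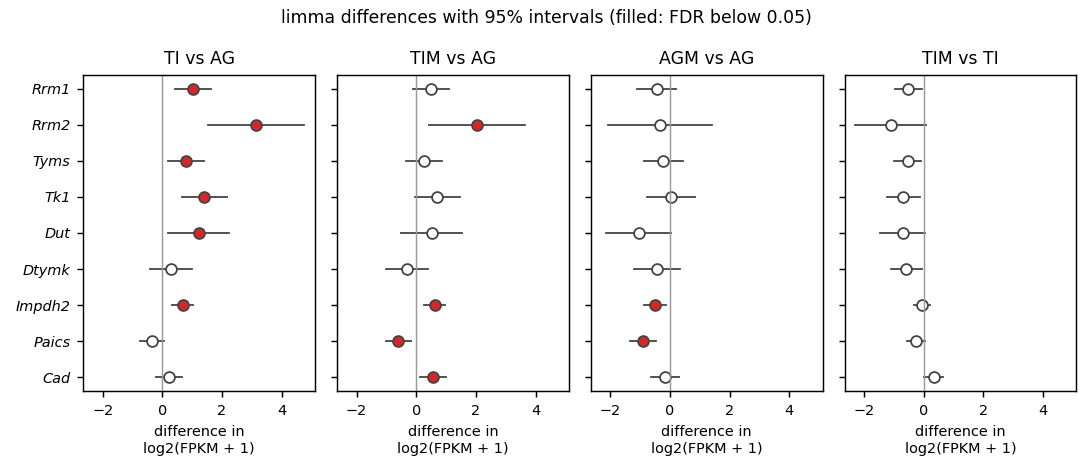
Differences in log2(FPKM + 1) of each member for TI and TIM against AG, AGM against AG and TIM against TI, with 95% intervals from limma; filled red points passed FDR 0.05. Rrm2 had the widest intervals, 1.53 to 4.76 in TI vs AG, and no member passed in TIM vs TI.

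Ribonucleotide reductase is described first. The small subunit Rrm2 was at 0.918, 0.672 and 0.592 FPKM in the AG libraries. In TI it ran from 1.943 to 56.53 with a median of 19.61, and in TIM from 0.432 to 21.97 with a median of 8.65. Every TI library lay above every AG library, and 7 of 8 TIM libraries did, the exception being TIM library 5. On the log2(FPKM + 1) scale Rrm2 was 3.14 ± 0.78 (SE) higher in TI than in AG (limma adjusted p = 0.00176, n = 8 and 3). That difference ranked 61 from the top among 10171 genes. In TIM it was 2.04 ± 0.78 higher (limma adjusted p = 0.0335). The TIM call was lost when AG library 1, 2 or 3 or TIM library 3, 6, 7 or 8 was left out (adjusted p from 0.0511 to 0.094), in a fit of AG and TIM alone (0.0555) and with limma-voom on recovered reads (0.167).

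The spread of Rrm2 between tumors was wide. Its highest library was 29.1 times its lowest in TI and 50.8 times in TIM, against 1.55 times in AG. TI library 3 was highest and TI library 4 lowest, as for most members: TI library 3 was the highest of its group for 8 of 9 members and TI library 4 the lowest for 7.

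The large subunit Rrm1 had a smaller fold. AG libraries held 0.969, 0.963 and 0.921 FPKM, TI libraries 1.137 to 5.724 (median 3.01) and TIM libraries 0.324 to 3.374 (median 1.99). All 8 TI libraries were above all AG libraries, and 6 of 8 TIM libraries were, while TIM libraries 2 and 5 lay below. Rrm1 rose by 1.01 ± 0.29 on the log2 scale in TI (limma adjusted p = 0.00586) and differed by 0.49 in TIM (adjusted p = 0.169). Without TIM library 5 the TIM difference was 0.64 and passed (adjusted p = 0.0394).

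The subunit balance was compared as a ratio within each library. Its level depends on the deposited gene lengths (11012 bases for Rrm1 and 2771 for Rrm2), and for the test 0.1 FPKM was added to both values before the log2 ratio was taken. The FPKM ratio of Rrm2 to Rrm1 had a median of 0.698 in AG, 0.937 in AGM, 5.94 in TI and 3.78 in TIM. Every tumor library of both groups exceeded every AG library. The mean log2 ratio was 2.57 higher in TI than in AG and 2.03 higher in TIM than in AG, each with an exact two-sided permutation p at the smallest value that 8 against 3 libraries can give (0.00606, adjusted p = 0.0146 over 24 ratio tests). AGM and AG differed by 0.20 (exact permutation, adjusted p = 0.551), and TIM and TI by -0.54 (adjusted p = 0.349).

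Rrm2b, the small subunit that serves resting cells and DNA repair, had its highest mean in AG. It was 0.636 FPKM in AG, 0.416 in AGM, 0.346 in TI and 0.306 in TIM, under the filter for the gene test. The log2 ratio of Rrm2b to Rrm2 was -0.15 ± 0.30 (SD, n = 3) in AG, 0.10 ± 0.63 (n = 5) in AGM, -4.98 ± 1.92 (n = 8) in TI and -3.76 ± 2.00 (n = 8) in TIM. The shift of -4.83 in TI and of -3.61 in TIM against AG passed the exact permutation test (adjusted p = 0.0146 and 0.0312). The TIM call was lost without AG library 2 or 3 or TIM library 1, 3, 6, 7 or 8 (shifts from -3.62 to -3.34). The median FPKM ratio of Rrm2b to Rrm2 was 0.961 in AG, 1.22 in AGM, 0.0154 in TI and 0.0411 in TIM.

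**Figure D3:**
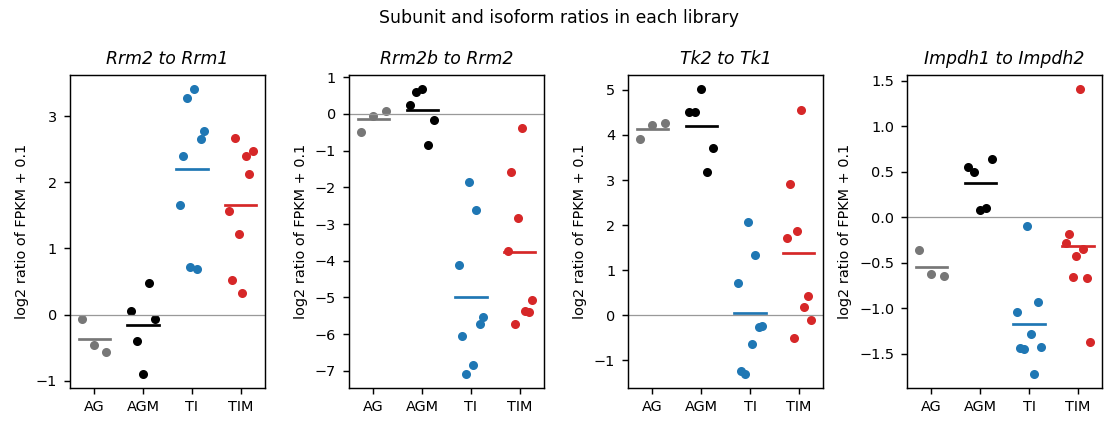
Ratios of FPKM within each library (log axes) for Rrm2 to Rrm1, Rrm2b to Rrm2, Tk2 to Tk1 and Impdh1 to Impdh2, 1 point per library in AG, AGM, TI and TIM. The median ratio of Rrm2 to Rrm1 was 0.698 in AG and 5.94 in TI, and that of Tk2 to Tk1 was 28.0 in AG and 0.834 in TI.

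The thymidylate genes followed. Tyms, the target of fluoropyrimidine drugs, was at 0.487, 0.393 and 0.412 FPKM in AG. It ran from 0.456 to 4.258 in TI (median 1.40) and from 0.0686 to 1.795 in TIM (median 0.623). In TI 7 of 8 libraries were above all AG libraries, and TIM libraries lay on both sides, 5 above and 2 below. Tyms rose by 0.80 ± 0.29 (SE, log2 scale) in TI (limma adjusted p = 0.0241) and differed by 0.26 in TIM (adjusted p = 0.482). The TI call was lost without AG library 1, 2 or 3 (adjusted p from 0.0564 to 0.0729) and with limma-voom (adjusted p = 0.0931).

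Dut, which keeps uracil out of DNA, was among the more abundant members, at 4.853, 4.659 and 4.804 FPKM in AG. TI libraries held 5.447 to 26.95 FPKM (median 12.37) and TIM libraries 1.814 to 17.88 (median 8.49). The TI range lay wholly above AG, and TIM libraries 2 and 5 lay below it. Dut rose by 1.22 ± 0.49 in TI (log2 scale, limma adjusted p = 0.0415) and differed by 0.52 in TIM (adjusted p = 0.399). The TI call was lost without AG library 1, 2 or 3 or TI library 2, 3, 5 or 7 (adjusted p from 0.0597 to 0.103), without the filter on low values (0.0597) and with limma-voom (0.0674).

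Dtymk overlapped between all groups but AG and AGM. It held 5.522, 5.123 and 5.604 FPKM in AG, 2.704 to 15.72 in TI (median 6.77) and 1.867 to 8.007 in TIM (median 4.34). The log2 difference was 0.28 in TI (95% interval -0.43 to 0.99, limma adjusted p = 0.536) and -0.31 in TIM (adjusted p = 0.474), so neither direction was resolved at this spread.

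Tk1, the cytosolic thymidine kinase, was the member with the lowest level in AG, at 0.256, 0.190 and 0.160 FPKM. It ran from 0.629 to 5.368 in TI (median 2.45) and from 0.0507 to 2.577 in TIM (median 1.01). All TI libraries and 7 of 8 TIM libraries were above all AG libraries, and TIM library 5 was below them. Tk1 rose by 1.40 ± 0.36 in TI (log2 scale, limma adjusted p = 0.00251) and differed by 0.71 in TIM (adjusted p = 0.107). The TI difference did not pass with limma-voom (3.31, adjusted p = 0.0592), and the TIM difference passed without TIM library 5 (0.84, adjusted p = 0.0476).

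The mitochondrial thymidine kinase Tk2 fell in both tumor groups. Its mean was 5.17 ± 0.239 FPKM (SD, n = 3) in AG, 5.465 ± 0.656 (n = 5) in AGM, 2.14 ± 0.428 (n = 8) in TI and 2.25 ± 0.571 (n = 8) in TIM. The log2 difference from AG was -0.98 in TI and -0.94 in TIM (limma adjusted p = 1.87e-06 and 3.49e-06). The median FPKM ratio of Tk2 to Tk1 was 28.0 in AG, 37.0 in AGM, 0.834 in TI and 2.515 in TIM. Against AG the log2 ratio shifted by -4.08 in TI (exact permutation, adjusted p = 0.0146, all 8 libraries below AG). The shift of -2.75 in TIM did not pass (adjusted p = 0.0679, 7 of 8 below), but did without TIM library 5 (-3.21, adjusted p = 0.0143).

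Of the 9 members, Impdh2 had the smallest spread between tumors, as the ratio of its highest to its lowest library. AG libraries held 4.219, 5.597 and 5.132 FPKM, TI libraries 6.595 to 10.24 (median 8.75) and TIM libraries 4.806 to 10.98 (median 8.34). The TI range lay above AG and 7 of 8 TIM libraries did. Impdh2 rose by 0.68 ± 0.17 in TI and by 0.62 ± 0.17 in TIM (log2 scale, limma adjusted p = 0.00176 and 0.00396). These calls held when any library was left out, and the TIM call was lost with limma-voom (0.56, adjusted p = 0.0517). Its highest TI library was 1.55 times its lowest, against 29.1 times for Rrm2.

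Its isozyme Impdh1 had the other pattern. The mean was 3.36 FPKM in AG, 4.24 in AGM, 3.84 in TI and 6.84 in TIM. Impdh1 rose in TIM against AG (0.79, limma adjusted p = 0.00432) and against TI (0.67, adjusted p = 0.00546), and was not called in TI against AG (0.12, adjusted p = 0.696). The log2 ratio of Impdh1 to Impdh2 was 0.86 higher in TIM than in TI (exact permutation, adjusted p = 0.0267), a call lost without TI library 6 (0.78, adjusted p = 0.0512). In AGM the ratio was 0.92 above AG, with all 5 AGM libraries above all AG libraries (adjusted p = 0.0312). The call was lost without AG library 1, 2 or 3, at shifts of 1.01, 0.88 and 0.87 (exact permutation, adjusted p = 0.0816 each). With an AG library left out the test has fewer splits, which raises the smallest p it can give.

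Paics, an enzyme of the middle of purine synthesis, was the only member with a lower mean in both tumor groups than in AG. It was at 16.47, 16.09 and 14.67 FPKM in AG, 10.02 to 16.99 in TI (median 11.81) and 5.67 to 15.53 in TIM (median 10.3). TI library 3 was the only tumor above all AG libraries. Paics fell by 0.59 ± 0.20 in TIM (log2 scale, limma adjusted p = 0.0155) and differed by -0.35 in TI (adjusted p = 0.15). The TIM call was lost without AG library 1 or 2 (adjusted p = 0.0604 and 0.0544) and in a fit of AG and TIM alone (adjusted p = 0.0729), and held with limma-voom (-0.80, adjusted p = 0.0143). A fit of AG and TI alone called Paics lower in TI as well (-0.35, adjusted p = 0.0415).

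Cad was the only member with a higher mean in TIM than in TI. It held 1.081, 0.976 and 1.100 FPKM in AG, 0.718 to 2.165 in TI (median 1.42) and 0.916 to 3.646 in TIM (median 1.89). In TIM 7 of 8 libraries were above AG, with TIM library 8 below. Cad rose by 0.56 ± 0.21 in TIM (log2 scale, limma adjusted p = 0.0316) and differed by 0.23 in TI (adjusted p = 0.395). The TIM call was lost without AG library 1, 2 or 3 or TIM library 3, 6 or 7 (adjusted p from 0.0527 to 0.0976), with reads outside the 126 most abundant genes as the scale (0.0719), in a fit of AG and TIM alone (0.103) and with limma-voom (0.0941).

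The order of the members by level changed between tissues, as far as FPKM allows genes to be compared. Paics had the highest mean in AG (15.74 ± 0.951) and AGM (7.90 ± 0.773), and Tk1 and Tyms had the lowest. In TI the order began with Rrm2 (21.09 ± 18.0), Dut (14.17 ± 7.71) and Paics (12.29 ± 2.1), whose SDs overlapped. In TIM it began with Paics (10.5 ± 3.3), Dut (9.14 ± 6.20) and Rrm2 (9.08 ± 7.67), again within their spread. Rrm2 was thus seventh of the members by mean in AG and first in TI.

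The comparison of AGM with AG asked how glands with the MYCN transgene and no tumor differed from controls. Here 2 members passed, both lower: Paics (7.035, 8.059, 8.877, 8.323 and 7.203 FPKM in AGM) and Impdh2 (3.102, 2.959, 3.668, 3.288 and 3.152 FPKM). Paics fell by 0.91 ± 0.21 and Impdh2 by 0.49 ± 0.18 (log2 scale, limma adjusted p = 0.0027 and 0.0444, n = 5 and 3). The comparison called 28.6% of all genes, 14.0% as lower. The Impdh2 call was lost without AG library 1, 2 or 3 or AGM library 1, 2, 4 or 5 (adjusted p from 0.0534 to 0.171).

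For 7 of 9 members every AGM library was below every AG library, which held for 32.5% of all genes tested. The exceptions were Rrm2 (0.387, 0.346, 0.252, 0.675 and 0.267 FPKM in AGM, 4 of 5 below AG) and Tk1 (0.154, 0.119, 0.0983, 0.431 and 0.338, 2 above and 3 below). Dut was at 1.878, 1.333, 1.964, 1.994 and 1.774 FPKM, 0.375 of its AG mean, and Rrm1 at 0.367, 0.486, 0.553, 0.456 and 0.285 FPKM, 0.452 of its AG mean. Tyms (0.182 to 0.298 FPKM), Dtymk (3.487 to 4.176) and Cad (0.656 to 0.968) were the others without overlap.

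How many members passed in AGM depended on the spread and the scale used. The fit over 4 groups borrows the wide tumor spread, and a fit of AG and AGM alone called 8 of 9 members lower, all but Tk1, among 6312 genes called. Limma-voom called 4, Rrm1 (-1.70), Dut (-1.93), Impdh2 (-1.10) and Paics (-1.47), on a scale on which the median gene moved by -0.50. The difference of Tk1 was 0.02 as deposited, -0.07 with reads outside the most abundant genes as the scale and -0.44 with limma-voom, so its direction was not resolved. The cortex marker sum was at least 3580 FPKM in each AGM library and at most 662.4 in AG, and its part in these differences was not tested.

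Against AGM glands, 8 members were higher in TI and 5 in TIM, where 36.2% and 31.9% of all genes were called higher and 72.4% and 65.3% were called at all. In TI the member not called was Cad (0.40, limma adjusted p = 0.0509). In TIM the 5 were Rrm2 (2.36), Dut, Rrm1, Impdh2 and Cad. With limma-voom Rrm2 did not pass in TIM (4.15, adjusted p = 0.0514) and Paics did (0.68, adjusted p = 0.0106), and with median-ratio scaling Dtymk did not pass in TI (0.62, adjusted p = 0.0615). Without TIM library 5 the TIM count was 8, and the call of Dtymk in TI was lost without any of 7 single libraries (AGM library 1, 2 or 5 or TI library 2, 3, 5 or 7, adjusted p from 0.0511 to 0.0673). Cad in TI and Tk1 in TIM passed with a pseudocount of 0.1, in fits of the 2 groups alone and with scaling to reads outside the high genes. Cad passed in TI without TI library 4 or 6 (adjusted p = 0.0222 and 0.0434), and Tk1 in TIM without TIM library 2, 4 or 5 (adjusted p = 0.0324, 0.0455 and 0.019).

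TIM was then compared with TI to ask whether tumors with both transgenes differed from those with IGF2BP1 alone, whose IGF2BP1 dose also differed. Sequencing run differed for most of these libraries as well, and tumor site was not matched. No member passed (0 of 9 called by limma, against 22.9% of all genes). At an unadjusted p below 0.05 there were 5, with Rrm1, Tyms, Tk1 and Dtymk lower in TIM and Cad higher. The difference was -1.11 for Rrm2 (95% interval -2.30 to 0.09, limma adjusted p = 0.169) and -0.69 for Tk1 (-1.24 to -0.13, adjusted p = 0.0665). It was -0.06 for Impdh2 (-0.32 to 0.20, adjusted p = 0.775) and 0.33 for Cad (0.01 to 0.66, adjusted p = 0.128). The median library was lower in TIM for 8 of 9 members. The median difference of the members was -0.54, against -0.0040 for all genes.

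These TIM against TI values lay close to the threshold. Limma-voom called 2 members lower, Tyms (-1.55, adjusted p = 0.0362) and Tk1 (-1.75, adjusted p = 0.04). With reads outside the most abundant genes as the scale, limma called Rrm1, Tyms and Tk1. Single libraries left out gave 0 to 4 calls: 4 without TI library 4 or TIM library 8, 3 without TIM library 3, 2 without TI library 6 and 1 without TIM library 6. Cad passed as higher without TIM library 8 (0.43, adjusted p = 0.0363). Without TIM library 5, the tumor with the lowest proliferation sum, the count was 0.

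The difference of differences, TIM against AGM minus TI against AG, called 0 of 9 members by limma (10.0% of all genes). At an unadjusted p below 0.05 there was 1, Paics (0.67, limma adjusted p = 0.110), and limma-voom called 0. Paics passed without TIM library 5 (0.77, adjusted p = 0.0191) and with reads outside the most abundant genes as the scale (0.97, adjusted p = 0.0355).

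Within each tumor group the members were set against the mean log2(FPKM + 1) of 9 proliferation markers, none of them a member. Over the 8 TIM libraries Pearson's r was 0.994 for Rrm2 (Spearman's rho 0.976), 0.985 for Tk1 (rho 1) and 0.985 for Dut (rho 0.929), with adjusted p from exact permutation of 0.000446, 0.000446 and 0.000893. Over the 8 TI libraries r was 0.934 for Rrm2 (rho 0.881), 0.927 for Tk1 (rho 0.976) and 0.867 for Dut (rho 0.929), with adjusted p from exact permutation of 0.00125, 0.00112 and 0.00364. Rrm1 (r = 0.955 in TI, 0.976 in TIM), Tyms (0.896, 0.937) and Dtymk (0.939, 0.959) passed in both groups too, over a family of 18 correlations. The share of all tested genes that follow these markers as closely was not computed, so such correlations are not shown to be particular to the members. The libraries with high Rrm2 were thus those with a high mean of markers such as Mki67, Top2a and Cdk1.

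The 3 genes of de novo synthesis varied. Cad did not pass in either group (r = 0.584 in TI and 0.466 in TIM, exact permutation adjusted p = 0.143 and 0.239, rho 0.381 and 0.429). Paics passed in TIM (r = 0.953, exact permutation adjusted p = 0.00112) and not in TI (r = 0.498, adjusted p = 0.22). Impdh2 passed in both (r = 0.855 and 0.908, exact permutation adjusted p = 0.00693 and 0.00227). A difference of these r values between genes or groups was not tested.

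The correlations were repeated over 6 libraries, without the 2 farthest from the median marker level. Tk1 (r = 0.905 in TI, 0.997 in TIM) and Dut (0.957, 0.963) passed in both groups again. Rrm1, Rrm2 and Dtymk passed in TIM (0.916, 0.98 and 0.929) and no longer in TI (0.825, 0.837 and 0.839, exact permutation adjusted p = 0.0731 for each). Tyms passed in neither (0.81 in TI and 0.88 in TIM, exact permutation adjusted p = 0.0731 and 0.0528). For these genes r stayed above 0.8 with fewer libraries. Impdh2 dropped further, to 0.582 in TI and 0.695 in TIM (exact permutation adjusted p = 0.255 and 0.177), so its Pearson's r depended on the extreme libraries. Spearman's rho of Impdh2 over the 6 libraries was 0.829 in TI and 0.429 in TIM. Paics stood at -0.101 in TI and passed in TIM (0.922). No value within a sequencing run could be given, since the columns carry no run.

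**Figure D4:**
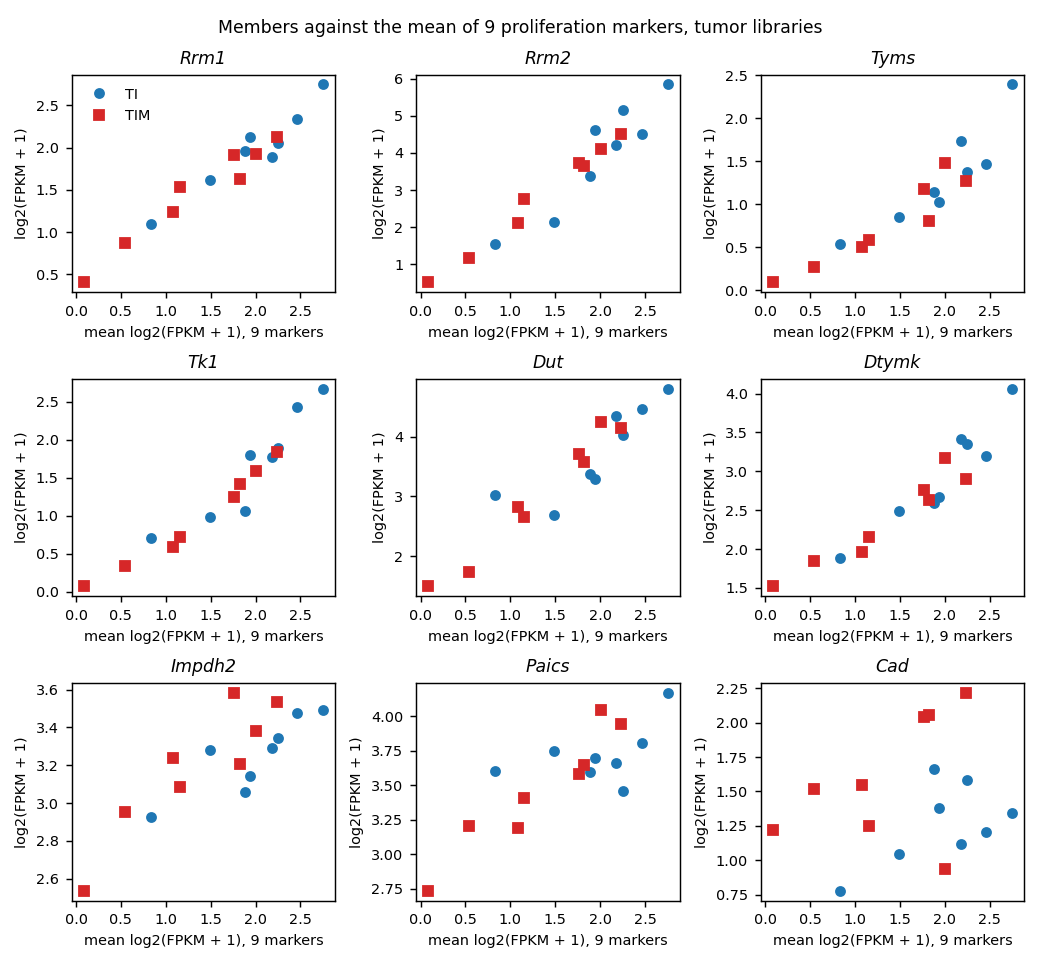
Log2(FPKM + 1) of each member against the mean log2(FPKM + 1) of 9 proliferation markers in the 8 TI (circles) and 8 TIM (squares) libraries. Rrm2 and Tk1 rose along a narrow band (r = 0.994 and 0.985 in TIM), and Cad did not (r = 0.466).

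The other genes of nucleotide synthesis, salvage and breakdown are given by their counts, beside the share of all genes called the same way. Of the 51 listed, 41 passed the filter on low values. In TI against AG 4 of these were called higher, 10 lower and 27 not at all, with a median difference of -0.10 (24.6% higher and 27.7% lower over all genes). In TIM against AG 6 were higher, 13 lower and 22 not called, with a median of -0.12 (22.5% and 28.5% over all genes). In AGM against AG 3 were higher and 8 lower (14.6% and 14.0% over all genes), and in TIM against TI 4 were higher and 3 lower (10.0% and 12.9%). Of the genes named below, Dctd and Dck were under 1 FPKM in every gland library. Mthfd2 reached 1 FPKM in AGM libraries 1 and 3 only, so Dctd, Dck and Mthfd2 passed the filter through tumor libraries. Their calls as higher in tumors, and the counts that include them, are therefore descriptions.

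By step, 1 of 12 tested purine synthesis genes was lower in TI and the other 11 were not called. Of 6 pyrimidine genes 1 was higher in TI and 2 lower. The one that rose was Nme1, a nucleoside diphosphate kinase, from 1.53 ± 0.224 FPKM (SD, n = 3) in AG to 6.84 ± 1.98 (n = 8) in TI and 5.41 ± 1.62 (n = 8) in TIM (log2 differences 1.60 and 1.30, limma adjusted p = 1.69e-06 and 2.58e-05).

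Among 7 tested deoxynucleotide and folate genes, 2 were higher and 2 lower in TI. Mthfd2, a mitochondrial enzyme of one-carbon metabolism, had means of 0.624 FPKM in AG, 3.81 in TI and 5.405 in TIM (1.495 and 1.88 higher on the log2 scale, limma adjusted p = 0.0002 and 1.41e-05). Dctd, which makes dUMP from dCMP, had means of 0.224, 1.33 and 2.125 FPKM (0.92 and 1.30 higher, adjusted p = 0.000136 and 1.68e-06). Shmt1, a cytosolic source of folate-bound carbon, went down from 5.90 to 1.425 and 1.29 FPKM (-1.59 and -1.73, adjusted p = 0.000543 and 0.000234).

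Of 9 salvage genes 1 was higher and 3 lower in TI. Dck, the deoxycytidine kinase, rose from 0.784 ± 0.0501 to 3.398 ± 1.92 FPKM in TI (1.19, limma adjusted p = 0.00679) and was at 2.35 ± 1.47 in TIM (0.78, adjusted p = 0.0695, passing without TIM library 2 or 5). Adk, the adenosine kinase, fell from 1.92 FPKM to 0.43 in TI and 0.816 in TIM (-1.03 and -0.70, adjusted p = 2.24e-06 and 0.000274). Of 7 tested breakdown genes 2 were lower in TI and 3 in TIM, and the rest were not called. Samhd1, which degrades deoxynucleotides, fell in TI (-0.45, limma adjusted p = 0.00279), TIM (-0.80, adjusted p = 6.28e-06) and AGM (-0.75, adjusted p = 0.000113). Xdh, which makes urate in purine breakdown, fell from 5.07 FPKM to 0.217 and 0.297 (-2.33 and -2.25, limma adjusted p = 2.21e-11 and 3.65e-11). The adipocyte marker sum was 44.65 to 198.2 FPKM in AG and 72.36 to 209.3 in AGM, and at most 0.195 in TI and 11.78 in TIM. The cortex marker sum was at least 642.1 FPKM in AG and 3580 in AGM, and at most 9.964 in TI and 9.28 in TIM. The part of either sum in these falls was not tested.

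**Figure D5:**
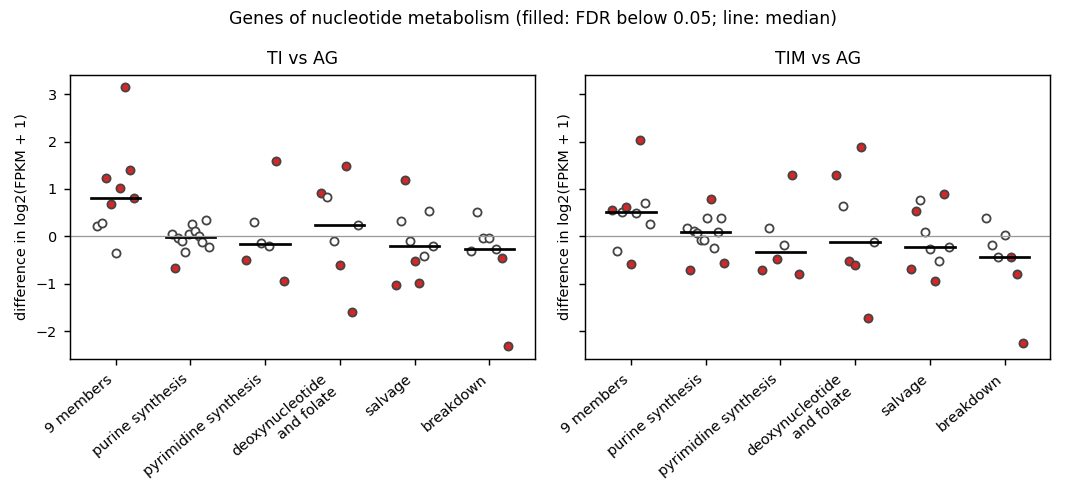
Log2 differences of the members and of the other tested nucleotide metabolism genes by list, in TI vs AG and TIM vs AG, 1 point per gene and a line at the list median. The medians were 0.80 and 0.52 for the 9 members and -0.10 and -0.12 for the 41 other genes together. These medians are descriptions, since some genes passed the filter on low values through tumor libraries.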

How the data were processed

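RNA came from frozen mouse adrenal glands and tumors, and strand-specific poly(A) libraries were sequenced. Per the labels, the authors trimmed reads with cutadapt 2.8, aligned them to mm39 with HISAT2 2.1.0 and counted them with featureCounts 2.0.0. Per the study's methods, they corrected a batch effect, which the methods do not name, with ComBat-seq and scaled the counts by TMM in edgeR 3.40. The annotation was not given in the sources used here. The deposited table holds FPKM for 24 libraries and a gene length. It also holds the authors' log2 fold changes, p-values and FDR against AG, which were not used. If that batch was the sequencing run, the correction could move groups sequenced in different runs toward or away from each other.

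Columns were matched to groups by name only. FPKM times length gave whole reads for 100.0% of values (tolerance 0.01 reads). Outside 126 genes above 1000 FPKM the libraries held 12334076 to 23683176 reads, and no pair of libraries was identical.

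The 10171 genes that reached 1 FPKM in 3 or more libraries were tested on log2(FPKM + 1) with limma 3.58.1 (R 4.3.3), with an intensity trend, 4 groups sharing the spread, no covariate, Benjamini-Hochberg adjustment and an FDR of 0.05. The pseudocount understates the change of low genes. The study tested counts, whereas here the table's FPKM called for a log-scale test, and limma-voom on the recovered reads was the read-based alternative. Ratios within a library (0.1 added to both values) were compared with exact permutation tests (two-sided), adjusted over 24 tests. Correlations used exact permutation of pairings, adjusted over 18. The gene-wise fits were tested on simulated data. Python 3.11.15, SciPy 1.17.1 and pandas 2.3.3 were used.

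Alternatives were a pseudocount of 0.1, no filter, a filter of 1 FPKM in every library, fits of the 2 groups alone, 2 other scalings, limma-voom and leaving out each library. The members and gene lists were chosen with earlier results of these data known. Named were the 9 members, the partners Rrm2b, Tk2, Impdh1 and Samhd1 (another partner in the rule is not reported here), other pathway genes called in TI or TIM against AG with a log2 difference of at least 1 in size, the 3 genes most like Rrm2, Impdh2, Cad and Paics, and medians of genes within 2 Mb of Rrm2 and Tk1. Cell type lists (cortex, sympatho-adrenal, Pnmt, Schwann, endothelial, leukocyte, adipocyte, proliferation) were summed. An erythroid list was not analysed here. Gene positions came from GENCODE (GRCm39) and promoter windows from RefSeq.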

Additional observations from a re-analysis of the deposited data

How the results depend on the processing

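No paired analysis was possible because the expression columns carry no replicate numbers, so the fit with a replicate block was not run. Over all alternatives 2100 values were rated the same, which for differences, ratios and correlations means the same direction and side of the threshold. A count of calls could be rated the same at another number, such as 6 members in place of 4 in TIM vs AG without TIM library 5. The rest were rated moved, weaker, stronger or reversed. With at least 1 FPKM in every library, 3464 genes were tested (fewer by construction) and 1627, 1534, 569, 737, 1944, 2318 and 14 were called (TI, TIM and AGM against AG, then TIM against TI, TIM and TI against AGM, and the difference of differences), against 5327, 5190, 2908, 2332, 6639, 7361 and 1018. Of the 4 members tested there, 2, 2, 1, 2 and 4 were called for TI, TIM and AGM against AG and for TIM and TI against AGM. Fits of 2 groups alone called 6312 genes and 8 members in AGM vs AG, 1309 genes in TIM vs TI and 1 member in TIM vs AG. Limma-voom called 3, 1, 4 and 2 members for TI, TIM and AGM against AG and TIM against TI, and 457 genes in the difference of differences, which had 1626 without a filter and 600 with a pseudocount of 0.1. Scaling to reads outside the most abundant genes called 4482 genes in AGM vs AG, 3 members in TIM vs TI and 1 in the difference of differences, and median-ratio scaling 1 member in AGM vs AG. The causes were not tested.

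The scale also moved the share of calls that were higher: in AGM vs AG from 51.2% to 19.9% (outside reads), 14.4% (limma-voom) and 64.1% (median ratios), in TIM vs TI from 43.6% to 27.0% and 22.7% on the former scales, in TIM vs AG from 44.2% to 31.5% (limma-voom), in TIM vs AGM from 48.8% to 62.3% and 60.5%, in TI vs AGM from 50% to 65.0% and 64.6%, and in the difference of differences from 38.5% to 68.5%, 79.6% and, with median ratios, 27.6%. The median of all genes moved by -0.27 (outside reads) and -0.50 (limma-voom) in AGM vs AG, and with limma-voom by -0.225 in TIM vs AG and -0.165 in TIM vs TI.

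Leaving out single libraries gave 1 to 6 called members in TIM vs AG (6 without TIM library 5), 1 to 2 in AGM vs AG (1896 to 2923 genes), 0 to 4 in TIM vs TI, 5 to 8 in TIM vs AGM and 0 to 1 in the difference of differences (691 to 1532 genes). The ratio of Tk2 to Tk1 ran from -0.16 to 0.30 in AGM vs AG, where its sign was not resolved, and from -3.21 to -2.48 in TIM vs AG (-1.65, passing, with a pseudocount of 1). That of Impdh1 to Impdh2 ran from 0.85 to 1.01 in AGM vs AG, -0.78 to -0.54 in TI vs AG, -0.020 to 0.38 in TIM vs AG, -0.94 to -0.54 in TIM vs AGM (passing without TIM library 5) and 0.61 to 1.01 in TIM vs TI. That of Rrm2b to Rrm2 ran from -4.10 to -3.33 in TIM vs AG.

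Members that changed sign were uncalled before and after. The difference of differences of Rrm1, -0.071, became 0.21 with a pseudocount of 0.1, 0.0031 with outside reads and 0.69 with limma-voom, and ran from -0.197 to 0.079 with single libraries left out (positive without TI library 3, TIM library 2 or TIM library 5). That of Dtymk, -0.16, became 0.11 and 0.16 with outside reads and limma-voom, and ran from -0.31 to 0.00011 (positive without TI library 3). Tk1 in AGM vs AG became -0.066 and -0.44 with outside reads and limma-voom, and ran from -0.033 to 0.062 (negative without AG library 3, AGM library 4 or AGM library 5). Impdh2 in TIM vs TI ran from -0.117 to 0.032 (positive without TIM library 5). Pearson's r of Paics in TI became -0.101 without the 2 extreme libraries.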

Other observations

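Beyond the pathway, the genes whose libraries rose and fell most like the members differed by member. Pearson's r of log2(FPKM + 1) minus the group mean was computed over the 24 libraries, which share their scaling, for the 10170 other genes tested, and is given as a description. For Rrm2 the nearest genes were Pclaf (r = 0.977), a PCNA-binding protein, Kif20a (0.972), a mitotic kinesin, and Mcm6 (0.97), a subunit of the replicative helicase. For Impdh2 they were Ccnb2 (0.918), Dnajc9 (0.909) and Ube2c (0.903), of which Ccnb2 and Ube2c act in mitosis. For Paics they were Parp2 (0.938), Lrrc40 (0.924) and Orc6 (0.922), a subunit of the origin recognition complex. For Cad they were the spliceosome components Aqr (0.9) and Snrnp200 (0.874), and Phrf1 (0.886). Among the members themselves Tyms and Dtymk were most alike (0.97), and Cad had 0.149 to 0.491 with each other member.

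Paics and Ppat, the first enzyme of purine synthesis, are neighbours in opposite orientation, and this gene was picked after its values were seen. Ppat held 1.195 ± 0.0602 FPKM (SD, n = 3) in AG, 0.7 ± 0.185 (n = 5) in AGM, 1.07 ± 0.452 (n = 8) in TI and 1.40 ± 0.519 (n = 8) in TIM. It was not called against AG in TI (-0.11, limma adjusted p = 0.656), TIM (0.10, adjusted p = 0.688) or AGM (-0.38, adjusted p = 0.171), while Paics was called lower in TIM (-0.59) and AGM (-0.91). The difference between both genes was not tested.

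The genes around Rrm2 and Tk1 were summarized as well. Of the 7 other tested genes within 2 Mb of Rrm2 on chromosome 12, the median difference was 0.46 in TI vs AG, 3 were called higher and 2 lower (24.6% and 27.7% over all genes), and none exceeded the 3.14 of Rrm2. In TIM vs AG their median was -0.29, and in TIM vs TI it was -0.30, with 4 lower. Of the 56 within 2 Mb of Tk1 on chromosome 11, the median was 0.31 in TI vs AG, 22 were higher and 10 lower, and 7 exceeded the 1.40 of Tk1. In TIM vs AG their median was -0.03, and in TIM vs TI it was -0.33, with 30 genes lower and 2 higher (12.9% and 10.0% over all genes).

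Other cell type lists were measured beside the members. Pnmt, which makes adrenaline, was at 191.9 to 391.9 FPKM over AGM libraries, 0.00713 to 28.76 over TI libraries and 0 to 203.6 over TIM libraries, against 1.07 to 2.008 for AG. The endothelial sum was 1.807 to 17.14 FPKM over TI libraries and 0.7407 to 6.441 over TIM libraries, against 10.52 to 11.15 for AG and 7.942 to 10.26 for AGM. The leukocyte sum overlapped between the groups (3.014 to 10.85 FPKM over all libraries). The Schwann sum was 2.775 to 5.188 FPKM for AG, 0.947 to 4.029 for AGM and 0.249 to 1.262 for TI, and 0.3599 to 20.01 over TIM libraries.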
